A study of Mus musculus with 9 samples.

Results

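Nes, Tubb3, Olig2, Neurod1, Map2, Fabp7 and Dcx are 7 markers of the neural lineage, and their transcripts were followed in mouse embryonic stem (ES) cells. The genes were taken by symbol from a table of exon read counts for 52550 Ensembl identifiers, and each symbol matched 1 identifier. The cells were of V6.5, a hybrid mouse ES line. The comparison was between 4 libraries of genotype wildtype (WT) and 5 of genotype KLF2/KLF4 DKO, the name standing for loss of both KLF2 and KLF4, zinc finger transcription factors of naive pluripotency. Both groups had the treatment Lif 2i: LIF with inhibitors of GSK and MEK, in Knockout DMEM with 15% FBS. The labels state neither the deleted part of the Klf genes nor whether replicates were separate cultures or clones, so the p-values cover the spread among these samples alone, and that spread may be technical.

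The 7 genes mark successive steps of neural development. Nestin (Nes) is the intermediate filament of neural progenitors, and OLIG2 and NEUROD1 are basic helix-loop-helix (bHLH) factors of motor neuron and oligodendrocyte progenitors and of differentiating neurons. TUBB3, MAP2 and doublecortin (Dcx) build and stabilise the microtubules of neurons, and FABP7 is the fatty acid binding protein of radial glia. ES cells held in LIF and 2i are in naive pluripotency, a state before any neural commitment, in which such genes are usually silent or low.

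Library totals ran from 6035642 to 7098530 counts. Levels are given as CPM, a count relative to its library total on the usual scale, computed on library totals scaled by TMM, the scaling factors of edgeR. A floor of 3 counts in a library stood for 0.425 to 0.505 CPM, and floors and intervals cover counting error only. Klf2 and Klf4 went against the label: Klf2 read 458 ± 9.82 CPM in WT and 613 ± 18.9 in the DKO-labelled libraries, and Klf4 read 845.5 ± 48.9 and 1590 ± 140 (SD, n = 4 and 5). The 3' reads check nothing if the deletion lies elsewhere, and every direction given compares DKO-labelled with WT libraries. All 8 ES cell markers examined had enough reads to be tested. By the test set out below, 4 rose and 3 fell, where 23.9% of all genes tested rose and 24% fell. Nanog, Esrrb, Dppa5a and Utf1 rose, Zfp42, Tdgf1 and Fbxo15 fell, and Pou5f1 did not pass. Their sum was 2368 to 2547 CPM in WT and 2649 to 2782 CPM in the DKO-labelled libraries. Dppa5a had the largest rise in CPM of the 8, from 403 ± 32.9 to 787 ± 67.9 CPM. That is more than the rise of the mean sum, which thus rests on this gene. Tdgf1 fell from 296 ± 4.39 to 167 ± 12.6 CPM. Markers of differentiated neural cells were read unevenly: 4 of 9 neuron markers and 6 of 8 oligodendrocyte and astrocyte markers were too low to be tested. Snap25, Sox10 and Mog each had 1 count over all WT libraries and 0 over those labelled DKO, and Aqp4 had 0 in both, whereas Stmn2 read 436 ± 33.3 CPM in WT and 338 ± 12.6 CPM in the DKO-labelled libraries. Elavl3, Elavl4, Syn1, Tubb3, Olig2 and Slc1a3 had enough reads to be tested too.

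Of the 7 markers, 1 rose (Nes) and 3 fell (Tubb3, Olig2 and Neurod1) in the DKO-labelled libraries, 1 (Map2) did not pass the test, and 2 (Fabp7 and Dcx) had too few reads to be tested. Passing means an edgeR adjusted p under 0.05 over 11893 genes. Over all genes tested, 23.9% rose and 24% fell, or 47.8% in either direction, so a call alone is common in this comparison and 4 of 5 tested markers is to be read against it. The counts given below for lists of related genes are to be read against the same shares. Tubb3, Olig2 and Neurod1 fell by over 2-fold, which was the case for 6.05% of the genes tested, with Neurod1 the least certain of the 3. The median log2 fold change was -1.15 over the 5 tested markers, which is the value of Neurod1 itself, and 0.01 over all genes tested. In such bulk libraries, fewer cells that express a gene and less RNA per cell cannot be told apart.

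**Figure D1:**
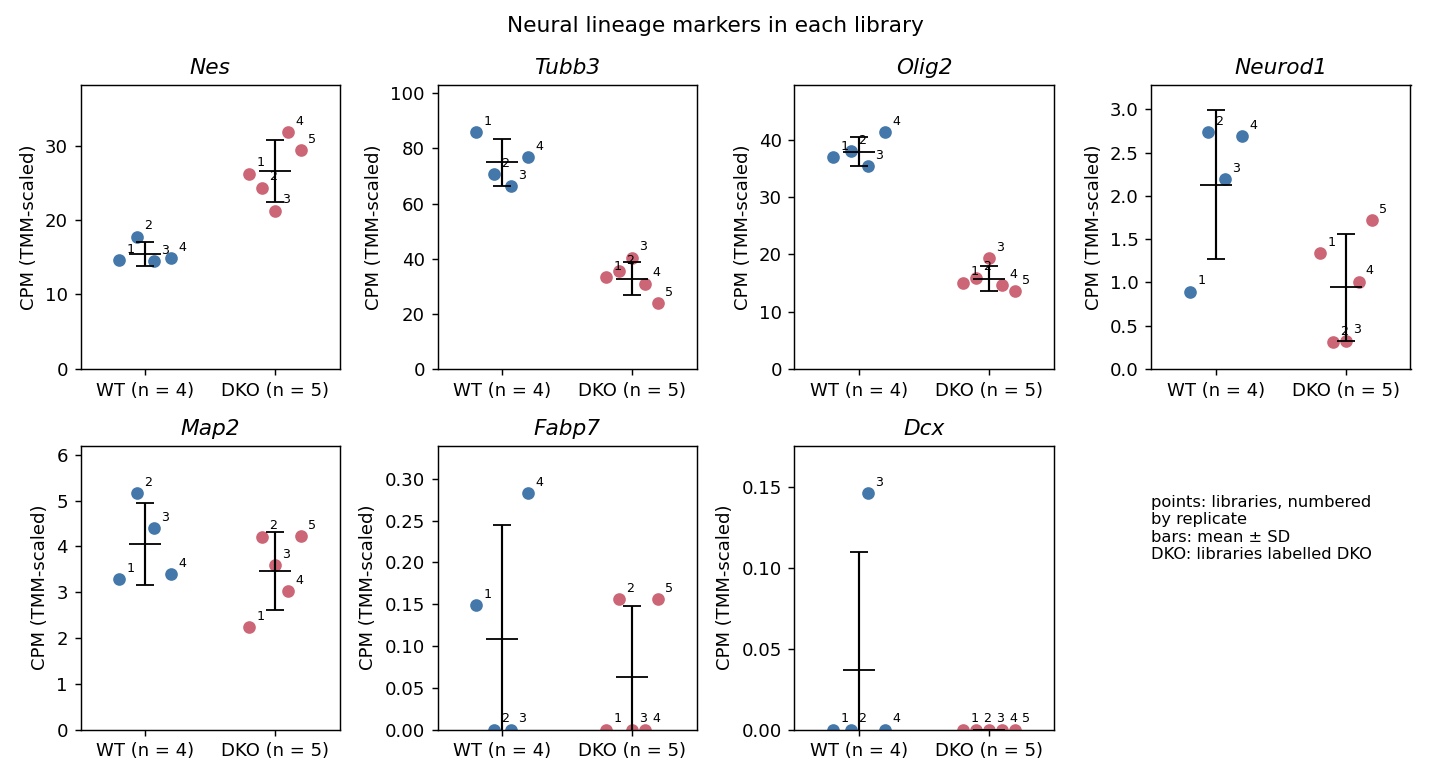
CPM of each neural marker in each library (points, numbered by replicate), with the mean and SD of 4 WT libraries and 5 DKO-labelled libraries; every vertical axis starts at 0. The groups are apart for Nes, Tubb3 and Olig2, overlap for Neurod1, Map2 and Fabp7, and Dcx has 1 read in WT 3 alone.

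Nes (ENSMUSG00000004891, chr3:87971078-87980451 on GRCm38, plus strand) was the marker that rose. WT 1 to 4 had 98, 117, 99 and 105 counts, against 176, 156, 130, 189 and 188 for DKO 1 to 5. The mean level was 15.4 ± 1.57 CPM in WT and 26.6 ± 4.14 CPM in the DKO-labelled libraries (SD, n = 4 and 5). The lowest library labelled DKO, DKO 3 at 21.3 CPM, lay above the highest WT library, WT 2 at 17.8 CPM, so the groups did not overlap. Groups without overlap were found for 37.4% of all genes tested, and for 18.4% with the DKO-labelled libraries higher. The log2 fold change was 0.79 ± 0.12 (SE), with an edgeR adjusted p of 1.2e-06, a 1.72-fold rise, and 6.63% of the genes tested had a larger value. Within the DKO-labelled libraries, Nes varied more than counting error allows, with a chi-square per degree of freedom of 3.56.

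The promoter of Nes is shown because KLF factors are the subject of the comparison and CACCC is the core of the box that KLF and SP factors bind. It is the 250 bases before the RefSeq start (chr3:87970843-87971092, GRCm38.p6, plus strand), with CACCC on either strand in capitals (GGGTG where it lies on the other strand). RefSeq and GENCODE starts differ, and the window of every marker runs into the GENCODE span printed for its gene. Positions of sites are counted from the RefSeq start.
Nes: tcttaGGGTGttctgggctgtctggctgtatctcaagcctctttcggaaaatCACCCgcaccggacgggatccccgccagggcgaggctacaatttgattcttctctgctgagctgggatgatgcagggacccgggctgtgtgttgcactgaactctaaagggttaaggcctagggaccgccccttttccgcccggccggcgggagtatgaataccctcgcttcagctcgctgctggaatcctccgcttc
The window held 2 CACCC sites, whose first bases lay at -245 and -198 from the start, and 2 GC boxes (GGGCGG, either strand). CACCC was present in 52.0% and GGGCGG in 32.7% of all 32851 RefSeq promoter windows of this length, so neither match sets Nes apart.

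Nestin belongs to the intermediate filaments, and the other neural and muscle members of that family mostly fell. Of 10 related genes, 8 were tested, 2 rose (Vim and Synm) and 6 fell, with a median log2 fold change of -1.60. Vim, which encodes vimentin, the partner of nestin in progenitor filaments, rose from 144.5 ± 12.6 to 329 ± 10.8 CPM (1.19 on the log2 scale, with an edgeR adjusted p of 6.3e-19). The 6 that fell were desmin (Des), peripherin (Prph), alpha-internexin (Ina) and the neurofilament genes Nefl, Nefm and Nefh. Nefh, the heavy neurofilament chain, fell from 43.3 ± 5.19 to 10.5 ± 1.81 CPM (-2.03 on the log2 scale, with an edgeR adjusted p of 1.9e-16). Des fell by 2.05 and Ina by 1.33 on the log2 scale, and Synm, which encodes synemin, rose by 0.69.

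Tubb3 (ENSMUSG00000062380, chr8:123411424-123422015, plus strand), the beta-tubulin isotype used as a neuronal marker, fell. WT 1 to 4 had 576, 466, 453 and 544 counts, against 224, 227, 247, 184 and 152 for DKO 1 to 5. The level went from 75.0 ± 8.47 to 32.8 ± 6.12 CPM, and every WT library lay above every library labelled DKO. Lower levels in DKO without overlap were found for 19.1% of all genes tested. The log2 fold change was -1.19 ± 0.11 (SE), with an edgeR adjusted p of 4.2e-09, a 2.29-fold fall. Tubb3 varied more than counting error allows in both groups, with a chi-square per degree of freedom of 6.19 in WT and 7.46 in the DKO-labelled libraries. The gene lies inside the span of the predicted gene Gm20388, which had 0 counts in all 9 libraries, and Mc1r, 680 bp before it on the same strand, had 0 to 3 counts per library.

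Genes around Tubb3 also fell. Of 86 tested genes that start within 5 Mb, 68 fell and 1 rose, with a median log2 fold change of -0.56. Tubb3 lay 0.64 below that median on the log2 scale, and 8 of the 86 neighbours had a lower value. A change of the whole segment and a change of the gene cannot be told apart in this design. The neighbours of the other tested markers had medians near 0: 0.06 over 104 genes around Nes, 0.03 over 49 around Olig2, -0.09 over 28 around Neurod1 and 0.10 over 27 around Map2.

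**Figure D2:**
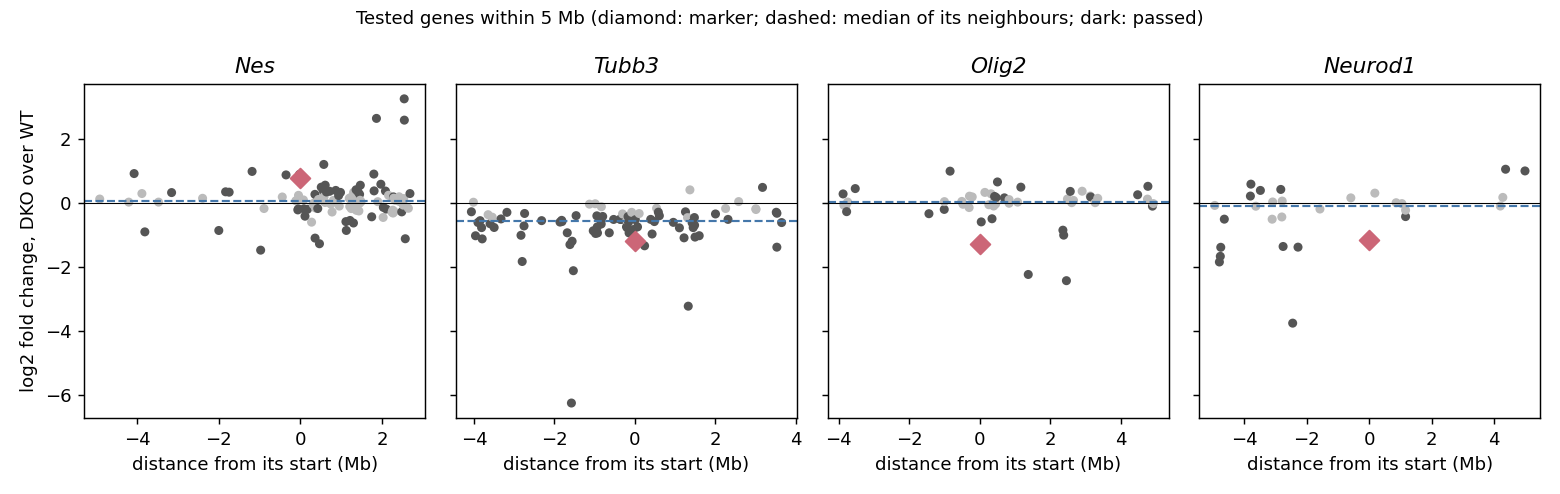
Log2 fold change (DKO-labelled libraries over WT, edgeR) of the tested genes within 5 Mb of Nes, Tubb3, Olig2 and Neurod1, against distance from the marker's start in Mb; diamonds are the markers, dashed lines the median of the neighbours, and dark points passed the test. The dashed line is at -0.56 around Tubb3 and near 0 around the other 3.

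Among the tested beta-tubulin isotypes, which share most of their sequence and differ in their tails, Tubb3 had the largest fall. Of 7 other isotype genes 5 were tested, 0 rose and 3 fell: Tubb2a (-0.40), Tubb2b (-0.21) and Tubb4b (-0.20), given as log2 fold changes. Tubb5, the main isotype of dividing cells, read 2425 ± 63.2 CPM in WT and 2462 ± 32.5 CPM in the DKO-labelled libraries (0.02, edgeR adjusted p = 0.682), and Tubb6 (0.17) did not pass either. As a share of all beta-tubulin reads, which does not depend on library scaling, Tubb3 made up 2.56% ± 0.247 in WT and 1.14% ± 0.210 in the DKO-labelled libraries (SD, n = 4 and 5). The share ran from 2.26% to 2.85% in WT and from 0.839% to 1.41% in the DKO-labelled libraries, without overlap. The other tested isotypes lie on other chromosomes, so both comparisons include any change of the segment around Tubb3. How reads shared by such similar genes were counted is not given, so single isotypes are uncertain to that extent.

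The promoter of Tubb3 (chr8:123411303-123411552, GRCm38.p6, plus strand) is shown in the same way, as the first of the 3 that fell.
Tubb3: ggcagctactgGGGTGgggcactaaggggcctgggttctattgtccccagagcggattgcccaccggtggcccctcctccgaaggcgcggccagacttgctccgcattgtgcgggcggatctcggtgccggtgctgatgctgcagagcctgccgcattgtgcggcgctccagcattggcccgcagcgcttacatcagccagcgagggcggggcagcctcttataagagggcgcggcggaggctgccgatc
It held 1 CACCC site, at -239, and 2 GC boxes, the nearer of them at -46.

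Olig2 (ENSMUSG00000039830, chr16:91225457-91228677, plus strand) also fell. WT 1 to 4 had 248, 250, 242 and 292 counts, against 101, 102, 118, 87 and 87 for DKO 1 to 5. The mean level was 37.9 ± 2.50 CPM in WT and 15.7 ± 2.18 CPM in the DKO-labelled libraries, and the groups were far apart, with 35.4 CPM the lowest in WT and 19.3 CPM the highest in DKO. The log2 fold change was -1.27 ± 0.10 (SE), with an edgeR adjusted p of 1.7e-12, a 2.42-fold fall, and 4.24% of the genes tested had a lower value. Spread within WT was near counting error, with a chi-square per degree of freedom of 1.12, and 1.94 in the DKO-labelled libraries.

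Olig1, its neighbour and close relative, starts 0.0443 Mb away and also fell, from 25.5 ± 2.10 to 16.9 ± 1.49 CPM (-0.60 on the log2 scale, with an edgeR adjusted p of 2.0e-05). The 95% interval of the log2 fold change was -1.48 to -1.06 for Olig2 and -0.81 to -0.38 for Olig1, and the difference between them was not tested.

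Neurod1 (ENSMUSG00000034701, chr2:79452521-79456751, minus strand) was sparse. WT 1 to 4 had 6, 18, 15 and 19 counts, against 9, 2, 2, 6 and 11 for DKO 1 to 5. WT 1, at 0.895 CPM, lay below 3 of the DKO-labelled libraries, so the groups overlapped. The means were 2.13 ± 0.858 CPM in WT and 0.943 ± 0.622 CPM in the DKO-labelled libraries. The log2 fold change was -1.15 ± 0.42 (SE), and the edgeR adjusted p was 0.0221. The gene met the filter on low counts in 3 WT libraries and 1 labelled DKO, the 4 that the filter needs. The call was lost without WT 2 (edgeR adjusted p = 0.0800), WT 4 (0.0744), DKO 2 (0.0657) or DKO 3 (0.0555), and without DKO 5 the gene was no longer tested. Its exons overlap those of Cerkl on the same strand and of the noncoding gene Gm26755 on the opposite strand, each with 0 or 1 count per library, and reads there may have been counted for either gene.

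The promoters of Olig2 (chr16:91225300-91225549, plus strand) and Neurod1 (chr2:79456637-79456886, minus strand), the bHLH genes of the set that fell, are shown with CACCC in capitals.
Olig2: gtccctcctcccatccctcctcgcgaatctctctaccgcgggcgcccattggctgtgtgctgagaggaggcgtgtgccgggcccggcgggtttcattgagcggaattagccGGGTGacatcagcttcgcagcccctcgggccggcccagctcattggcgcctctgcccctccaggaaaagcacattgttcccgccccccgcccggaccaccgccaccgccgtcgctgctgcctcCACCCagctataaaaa
Neurod1: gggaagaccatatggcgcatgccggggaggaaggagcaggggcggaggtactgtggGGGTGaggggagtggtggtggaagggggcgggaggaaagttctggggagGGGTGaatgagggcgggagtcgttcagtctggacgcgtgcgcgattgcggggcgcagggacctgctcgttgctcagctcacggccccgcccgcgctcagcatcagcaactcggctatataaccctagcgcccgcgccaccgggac
Each held 2 CACCC sites, at -139 and -16 in Olig2 and at -194 and -145 in Neurod1, with 2 GC boxes in Olig2 and 4 in Neurod1. Neurod1 also held 1 E box (CANNTG, the motif bHLH factors bind, found in 66.2% of all windows), at -242. None of these CACCC sites overlapped a GC box, and a CACCC site thus stood both before Nes, which rose, and before the 3 that fell.

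Proneural factors and their relatives were mostly too low to be tested. The proneural and OLIG bHLH list of 18 genes holds drivers of neurogenesis such as the neurogenins, and a few factors outside the bHLH family. Of these, 2 were tested: Olig1 fell and Hes6 (-0.28, edgeR adjusted p = 0.0886) did not pass, except without WT 4 or DKO 4 (0.0376 and 0.0380). E proteins, the partners that proneural factors need to bind DNA, and ID proteins, which sequester those partners, were all tested. Of these 7 genes, 1 rose and 4 fell. Id1 fell from 67.0 ± 3.43 to 5.62 ± 0.853 CPM and Id3 from 127 ± 6.21 to 45.8 ± 9.90 CPM, whereas Id2 (0.15) and Id4 (-0.33) did not pass, Id4 doing so without DKO 1 or DKO 2 (edgeR adjusted p = 0.0475 and 0.0207). Tcf12, an E protein, rose from 36.7 ± 0.957 to 72.5 ± 5.83 CPM, and Tcf3 (-0.23) and Tcf4 (-0.18) fell, the call of Tcf4 being lost without DKO 2 (edgeR adjusted p = 0.0564).

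Map2 (ENSMUSG00000015222, chr1:66175273-66442583, plus strand), which encodes a microtubule-associated protein of dendrites, did not pass. WT 1 to 4 had 22, 34, 30 and 24 counts, against 15, 27, 22, 18 and 27 for DKO 1 to 5, or 4.06 ± 0.892 and 3.46 ± 0.847 CPM. The groups overlapped, with most libraries of either genotype between 3 and 5 CPM. The log2 fold change was -0.23 ± 0.24 (SE), with an edgeR adjusted p of 0.465. Its 95% interval, -0.73 to 0.27, leaves room for a smaller change in either direction but not for a fall as large as that estimated for Tubb3.

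Other microtubule-associated genes moved both ways. Of 24 genes of that list and the doublecortin family, 20 were tested, 5 rose and 10 fell, with a median log2 fold change of -0.13. Among all genes tested, 23.9% rose and 24% fell. Mapt, which encodes tau, fell from 65.0 ± 2.87 to 24.8 ± 1.41 CPM (-1.39 on the log2 scale, with an edgeR adjusted p of 1.7e-16). Map1b (-1.71) and the collapsin response mediators Dpysl3 (-2.13) and Crmp1 (-2.76), genes of growing axons, also fell. Map4 (0.09) and Map7 (0.14), found in many cell types, did not pass, except Map7 without DKO 1 (edgeR adjusted p = 0.0408).

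Dcx (ENSMUSG00000031285, chrX:143855842-143933311, minus strand), the marker of migrating young neurons, had 1 count in WT 3 and 0 in each of the other 8 libraries. That is 0.0367 CPM over the 27244726 WT counts (exact Poisson 95% interval 0.000929 to 0.205), and for 0 of 31484068 counts in the DKO-labelled libraries the same interval reaches 0.117 CPM, against 0.0953 CPM for the floor of 3 counts. Fabp7 (ENSMUSG00000019874, chr10:57784881-57788450, plus strand) gave 1, 0, 0 and 2 reads for WT 1 to 4, against 0, 1, 0, 0 and 1 for DKO 1 to 5. No difference of Fabp7 was detectable at this depth: the exact permutation test on CPM, 2-sided, gave p = 0.683, where 0.00794 is the smallest p its values can give. For Dcx a single count leaves nothing to test, since no division of the 9 libraries can give an exact p under 0.444.

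Some relatives of these barely read genes were tested. Of 8 other FABP genes 2 were tested: Fabp3, the heart type, rose from 180 ± 16.3 to 522 ± 71.7 CPM (1.54 on the log2 scale, with an edgeR adjusted p of 4.2e-07), and Fabp5, the epidermal type, fell from 10.6 ± 1.37 to 7.15 ± 0.762 CPM. In the doublecortin family, whose members share the microtubule-binding domain of DCX, Dclk2 (0.98) and Dclk3 (0.70) rose. Dclk1 (5 counts over the WT libraries and 6 over those labelled DKO) and Dcdc2a (40 and 33) were too low to be tested. All of these family members were named after their values were seen.

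The 2 barely read genes differed from the others in the CpG content of their promoters. Over the 250 bases before the start, CpG dinucleotides numbered 15 in Nes, 21 in Tubb3, 22 in Olig2, 22 in Neurod1 and 34 in Map2, but 4 in Fabp7 and 3 in each of the 2 Dcx entries, against a median of 6 over all windows. Map2 (chr1:66175079-66175328, plus strand) and Fabp7 (chr10:57784673-57784922, plus strand) are shown as the richest window and one of the poorest, here with CpG in capitals.
Map2: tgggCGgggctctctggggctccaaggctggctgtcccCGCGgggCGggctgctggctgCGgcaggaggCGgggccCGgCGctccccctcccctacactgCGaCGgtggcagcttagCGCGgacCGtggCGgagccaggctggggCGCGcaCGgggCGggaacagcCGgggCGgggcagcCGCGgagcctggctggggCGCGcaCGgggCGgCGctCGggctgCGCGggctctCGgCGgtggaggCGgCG
Fabp7: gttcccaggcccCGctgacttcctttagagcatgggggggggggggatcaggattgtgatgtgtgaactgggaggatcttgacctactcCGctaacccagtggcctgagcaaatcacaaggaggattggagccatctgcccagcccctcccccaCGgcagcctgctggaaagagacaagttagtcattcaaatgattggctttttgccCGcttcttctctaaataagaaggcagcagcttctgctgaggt
Neither window held CACCC, whereas the 2 Dcx entries held 1 and 2 CACCC sites. Map2 held 5 GC boxes and Fabp7 none, and Fabp7 held 2 E boxes. This is a description of 7 genes with no test.

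The DKO-labelled libraries did not differ from WT to the same degree. With the WT mean set at 0 and the DKO mean at 1 on the log2 CPM scale, DKO 3 stood at 0.60 for Nes, 0.73 for Tubb3 and 0.76 for Olig2, the nearest to WT of the 5 in each case. DKO 5 stood at 1.21, 1.36 and 1.15, and DKO 4 at 1.35, 1.05 and 1.07. The median place of the 1212 genes that passed with at least a 2-fold change was 0.92 in DKO 3 and 0.99 to 1.04 in the other 4, so that DKO 3 was nearest to WT there too, by less. Without DKO 3 the log2 fold changes were 0.86 for Nes, -1.28 for Tubb3 and -1.35 for Olig2. Neurod1 did not follow this order, with 2 counts each in DKO 2 and DKO 3. This comparison of libraries was chosen after the values were seen.

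**Figure D3:**
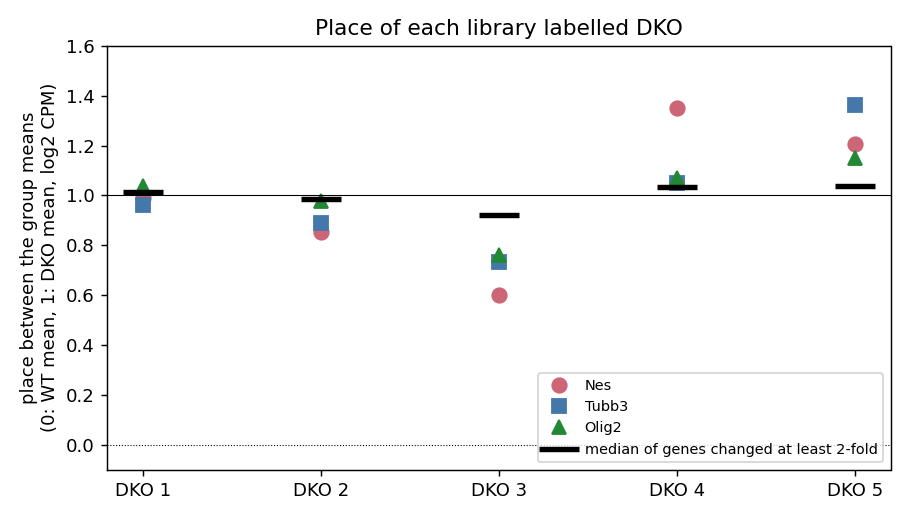
Place of each library labelled DKO between the group means of log2 CPM (0 is the WT mean, 1 the DKO mean) for Nes, Tubb3 and Olig2, with the median over the 1212 genes changed at least 2-fold as a bar. DKO 3 has the lowest value for each, from 0.60 to 0.76 for the markers and 0.92 for the median.

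Many genes shared the patterns of the tested markers across the 9 libraries. Among 7840 named genes of at least 10 CPM, Pearson's r of log2 CPM was 0.9 or more with Olig2 for 847 genes, with Tubb3 for 656, with Nes for 540, with Neurod1 for 8 and with Map2 for 2. Closest to Olig2 were Cited1, Basp1 and Pik3r3 (r = 0.995, 0.995 and 0.994), and closest to Tubb3 were Tex261, Pura and Elovl7 (0.994, 0.992 and 0.991). Vps29, Ttc28 and Soat1 were closest to Nes (0.985, 0.983 and 0.983), Zfp292, Appl2 and Pde4a to Neurod1 (0.960, 0.953 and 0.931), and Snx8, Pfdn2 and Zbtb45 to Map2 (0.925, 0.913 and 0.887). The 9 points share 2 groups, so these values describe the libraries and are not tested.

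REST, the repressor that keeps neuronal genes off in non-neuronal cells, was itself well read. Rest went from 850 ± 33.2 to 772 ± 47.7 CPM, a small fall (-0.14 on the log2 scale, with an edgeR adjusted p of 0.0137). Of the 17 genes of REST and its corepressors, all tested, 5 rose and 6 fell, with a median of 0.01. Over all genes tested, 23.9% rose and 24% fell. Its corepressor Rcor2 rose from 381 ± 32.8 to 540.5 ± 23.7 CPM and the deubiquitinase Usp7 (0.25) rose, while the corepressor Sin3b (-0.38) and the phosphatase Ctdspl (-1.32) fell, and Rcor1 (0.01) and Sin3a (-0.04) did not pass.

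Notch signalling, which holds neural progenitors back from differentiation, had changes in both directions. Of 24 listed genes 17 were tested, 5 rose and 6 fell, with a median of -0.11, where 23.9% and 24% of all genes tested did so. Hes1, the Notch target that represses proneural genes, fell from 163 ± 12.8 to 98.6 ± 8.59 CPM (-0.72 on the log2 scale, with an edgeR adjusted p of 2.0e-11). The ligand Jag1 (0.55) rose, and the regulators Dtx1 (-1.70) and Rfng (-0.55) fell, while Notch1 (0.14) and the DNA-binding effector Rbpj (-0.11) did not pass, except Rbpj without DKO 3 (edgeR adjusted p = 0.0413).

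Regulators of the neural plate and of progenitors went both ways. Of 28 genes 16 were tested, 6 rose and 4 fell, with a median of 0.18, against 23.9% and 24% of all genes tested. Gbx2, a homeobox factor also expressed in naive cells, rose from 10.1 ± 0.686 to 23.3 ± 1.62 CPM, and the RNA-binding gene Msi2 (0.43) rose, while Msi1 (0.09) and En2 (0.12) did not pass. Zfp521 went from 3 counts over all WT libraries to 188 over those labelled DKO and passed, and Pou3f2, a POU factor of neural cells, went from 94 to 3 and passed. Sox1, the earliest neuroectoderm marker, read 15.4 ± 1.62 and 16.8 ± 4.48 CPM (0.12, edgeR adjusted p = 0.518).

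Neuronal genes also went both ways. Of 31 listed, 18 were tested, 6 rose and 8 fell, with a median of -0.09, against 23.9% and 24% of all genes tested. Elavl2, an RNA-binding protein of neurons and germ cells, fell from 109 ± 3.04 to 66.2 ± 3.73 CPM, as did the growth cone gene Gap43 (-2.21) and the neurexin gene Nrxn2 (-1.73). The kinesin gene Kif5a (1.01) rose, and Uchl1 (0.01) and Celf4 (0.23) did not pass. Of 19 glial genes 7 were tested, 4 rose and 2 fell, with a median of 0.31. Mbp and Mobp, genes of myelin, rose from 2.39 ± 0.487 to 32.1 ± 7.13 CPM and from 1.43 ± 0.523 to 20.96 ± 3.64 CPM, in the libraries where Olig2 fell. Glul (-0.59) and Cnp (-0.62) fell, and Slc1a3 (-0.20) did not pass.

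**Figure D4:**
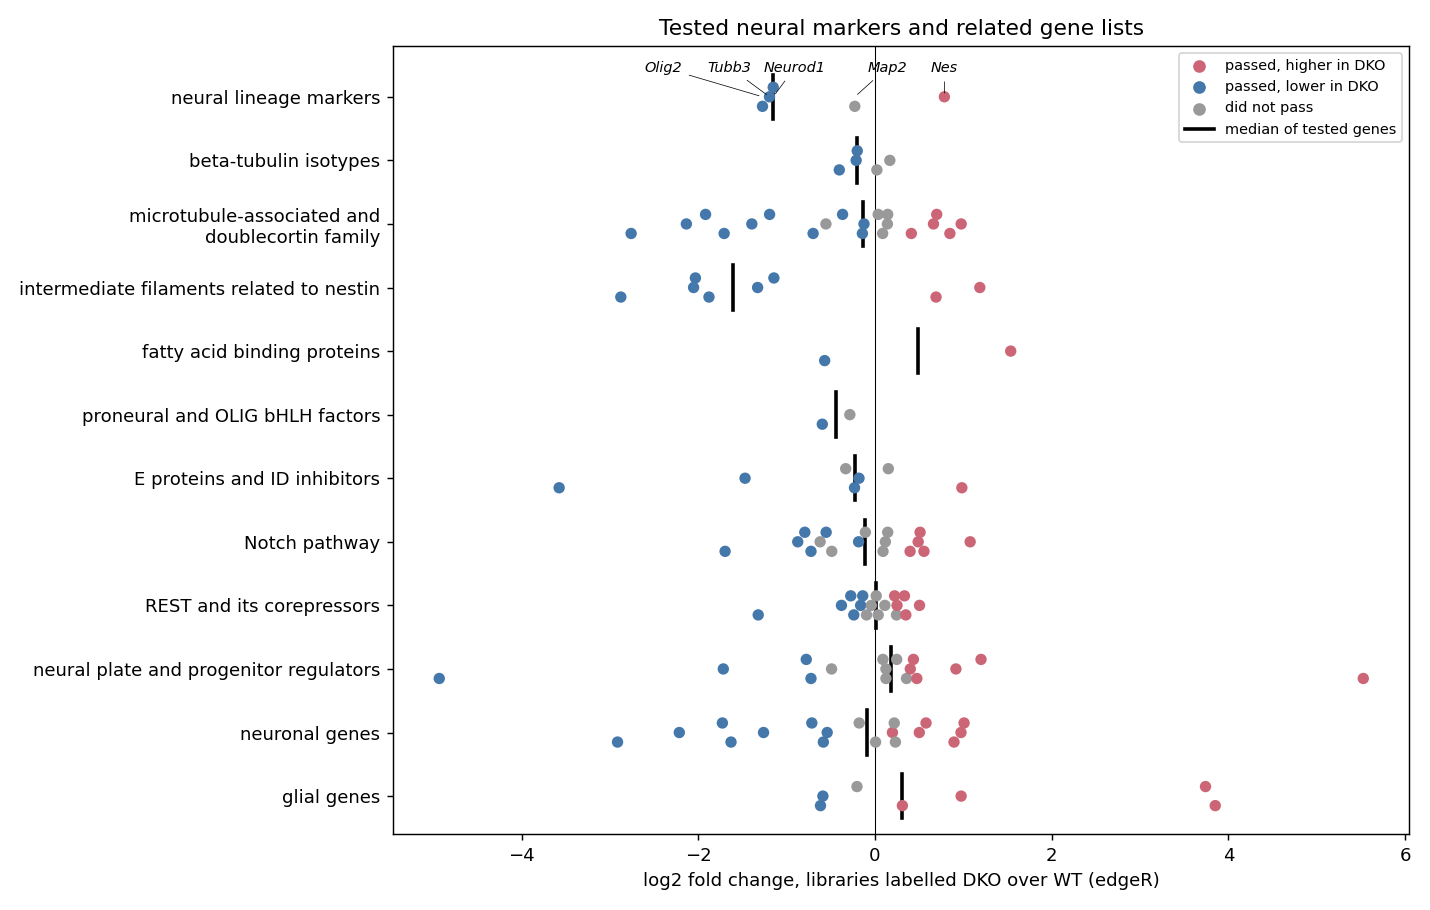
Log2 fold changes (DKO-labelled libraries over WT, edgeR) of the 5 tested neural markers and of the tested genes of 11 related lists, 1 point per gene, with the median of each list as a black bar. Passing genes lie on both sides of 0 in most lists, and the intermediate filaments have the lowest list median, -1.60.

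Markers of other cell types were summed, and the neural sums include markers of this set. The 8 neural progenitor markers summed to 62.8 to 72.5 CPM in WT and 78.5 to 87.8 CPM in the DKO-labelled libraries. This sum rose, as did that of the ES cell markers given above, and the other sums fell. The progenitor sum includes Nes itself, which went from 15.4 ± 1.57 to 26.6 ± 4.14 CPM, so it is not separate from the Nes result. Nes was the 1 of 3 tested that rose, Sox1 and Msi1 not passing. The 8 oligodendrocyte and astrocyte markers, mostly Olig2 by reads, summed to 39.8 to 46.4 CPM and 17.4 to 23.4 CPM, with Aqp4 at 0. The 11 markers of fibroblasts, a type used as feeders, summed to 13.8 to 18.7 CPM in WT and 5.40 to 9.84 CPM in the DKO-labelled libraries. Of these, 9 were too low to be tested, Lum was at 0, and only Col5a1 was called, downward. The 8 mesendoderm and endoderm markers summed to 21.1 to 23.7 CPM and 4.04 to 7.65 CPM, with none at 0 over all libraries, and Eomes and Mixl1 fell. Of 9 neuron markers, 5 were tested, 4 fell (Elavl3, Stmn2, Syn1 and Tubb3) and 1 rose (Elavl4), and their sum went from 475 to 548 CPM in WT to 350 to 393 CPM in the DKO-labelled libraries, mostly on Stmn2. Their part in the changes of the neural markers was not tested.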

How the data were processed

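The authors deposited raw exon read counts per Ensembl gene, not normalized, for 9 libraries. Per the labels' protocols, 600 ng of Trizol-extracted RNA entered the QuantSeq 3' kit (forward version, stranded), whose reads lie near transcript ends. The submitters' processing notes name cutadapt, STAR, featureCounts and DESeq2, and mm10 as the build. For annotation release, strand setting and multi-mapped reads, the choices were not given in the sources used here. Symbols and positions come from GENCODE mouse release 21 (52403 of 52550 identifiers matched), and promoter sequences from RefSeq on GRCm38.p6, which held all 7 markers.

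Counts were filtered with filterByExpr by group, scaled by TMM and tested with the robust quasi-likelihood test of edgeR 4.0.16 in R 4.3.3, with genotype as the only term and Benjamini-Hochberg adjustment over all genes tested. Standard errors follow from the F statistic of each gene. The fit was tested on simulated data. Alternatives were other scalings and filters, DESeq2 1.42.0, a non-robust fit, a replicate block and leaving out each library. Fabp7, too low for the fit, had a 2-sided exact permutation test. No pair of replicates looked like 1 library counted in duplicate (chi-square per degree of freedom 2.31 to 5.40 over 16 pairs).

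The markers, lists and tests were chosen with earlier results of these data known, so no p-value was adjusted over the markers alone. The 7 markers were always named. Of each list, the rule named up to 4 passing genes, ranked by adjusted p, and up to 2 abundant genes that did not pass, with the 3 genes most like each tested marker. Synm, Nefl, Nefm, Prph, Tcf4, Rest, Sox1, Dclk1, Dclk2, Dclk3 and Dcdc2a fall outside this rule and were picked after their values were seen, and cell type markers come from separate lists.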

Additional observations from a re-analysis of the deposited data

Results flagged for a closer look

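Of 13 groups of marker values, 2 held a library far from the others. Nes read 17.8 CPM in WT 2, the highest of the WT libraries, while the other 3 lay within 14.5 to 14.9 CPM, and chance flags about 1 in 20 groups. Without WT 2 the log2 fold change of Nes was 0.85 (edgeR adjusted p = 2.4e-06). Dcx read 0.146 CPM in WT 3, from its only count, and 0 in the other WT libraries, a pattern that any single count gives, so that rate does not apply to it.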

How the results depend on the processing

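The calls of Nes, Tubb3 and Olig2 held under all 17 alternative fits, with log2 fold changes of 0.72 to 0.86, -1.28 to -1.10 and -1.35 to -1.23. Map2 passed in none of the 16 that tested it. Neurod1 was tested in 14 and passed in 10, losing its call without WT 2, WT 4, DKO 2 or DKO 3, and was too low for the filter with the 5 CPM minimum in 4 libraries, in the replicate block and without DKO 5. Leaving out each library gave 1 marker up and 2 to 3 down, with 2560 to 2849 of all genes up and 2661 to 2880 down. The other alternatives gave 2468 to 2918 of all genes up and 2475 to 3157 down. Same-numbered libraries deviated together by r = 0.010 to 0.070 over 4 pairs. Of these libraries, 3 of 4 WT and 4 of 4 numbered DKO correlated best with their own number. Such small values cannot decide whether the numbers pair the samples. The labels state no pairing, so the main fit used none. The replicate block, without DKO 5, gave 1 marker up and 2 down, Neurod1 being untested in it, with 2699 of all genes up and 2798 down. The difference of Fabp7 did not pass with library totals either. Under 20 counts in a library, depth limits what can be seen. That was so for Neurod1, Fabp7 and Dcx in every library, and for Map2 in DKO 1 and DKO 4 (15 and 18 counts). Of 65 other genes followed, 48 passed, and 47 of these kept their call in every alternative that tested them, Tcf4 losing it without DKO 2. Genes near 0 that did not pass changed sign when 1 library was left out: on the log2 scale, Rcor1 ran from -0.02 to 0.0425, Uchl1 from -0.0221 to 0.0386, Sox1 from -0.0242 to 0.22 and En2 from -0.0325 to 0.25.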
